A study of Mus musculus with 15 samples.

Results

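The genes described here are the glutamate receptors and postsynaptic scaffolds of the mouse dentate gyrus (DG). They were taken by symbol from a fixed list, which gave 38 of the 32657 features counted in every library: 24 receptor genes (4 AMPA, 7 NMDA, 5 kainate, 7 metabotropic and 1 delta) and 14 scaffold genes (4 MAGUK, 4 SAPAP, 3 Shank and 3 Homer). The study compared mice that lack functional serotonin receptor 4 (Htr4) in hippocampal excitatory neurons with controls. Translating ribosome affinity purification (TRAP) pulls down ribosomes that carry EGFP-tagged protein L10a, so the IP holds ribosome-bound RNA of the tagged cells. The input is RNA from the cleared lysate of the whole dissected tissue, taken before the pulldown. RNA-seq was done on 15 libraries in 6 groups: IP and input of the ventral DG (vDG) and input of the dorsal DG (dDG), each with 3 WT and 2 conditional knockout (cKO) libraries.

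All 6 groups came from adult mice of 8 to 12 weeks that carried the Drd3-Cre KI198 driver and the Cre-dependent Rosa26-fsTRAP allele, and the cKO mice also carried the Htr4-Floxed allele, from which Cre removes exon 5. The WT libraries therefore also carry Cre and the tag. The KI198 driver marks mature granule cells and hilar mossy cells of the DG together with part of the CA pyramidal cells, so the IP is a mixture of excitatory neurons. Each library is a pool: by the sample records 3 mice went into an IP and 2 into an input, whereas the supplementary methods give 1 male and 1 female per replicate, and p-values measure the spread between these pools. The records of the inputs name cortex as their source, but the titles name vDG or dDG. The dorsal marker Lct measured 128 to 182 CPM (counts scaled to a common library size) in WT dDG and 32.9 to 43.5 CPM in WT vDG inputs, and the ventral marker Trhr to 0.264 to 0.719 and 21.7 to 31.3 CPM.

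Glutamate is the main excitatory transmitter of the brain. AMPA, NMDA and kainate receptors are tetrameric cation channels: AMPA receptors carry most of the fast current, NMDA receptors need depolarization together with glutamate and glycine or serine and admit calcium, and kainate receptors act on both sides of the synapse. Metabotropic receptors couple to G proteins. Beneath the membrane, MAGUK proteins of the PSD-95 family bind receptor tails, SAPAP proteins link MAGUKs to Shanks, and Homers tie Shanks to the group I metabotropic receptors. Granule cells receive this input on spiny dendrites from the entorhinal cortex, and mossy cells receive it from granule cell axons.

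Promoters are shown for 2 pairs of close relatives that lay on opposite sides of the comparison of IP with input: Grin1 with Grin2c, and Grm2 with Grm3. The sequences are from RefSeq on GRCm38.p6 and run 5′ to 3′ on the gene's strand, from 250 bases before to 50 bases after the annotated start. Capitals mark GGGCGG, the core of the GC box bound by Sp1 family factors, which was searched on both strands (CCGCCC on the other) with overlapping matches counted.
Grin1 promoter: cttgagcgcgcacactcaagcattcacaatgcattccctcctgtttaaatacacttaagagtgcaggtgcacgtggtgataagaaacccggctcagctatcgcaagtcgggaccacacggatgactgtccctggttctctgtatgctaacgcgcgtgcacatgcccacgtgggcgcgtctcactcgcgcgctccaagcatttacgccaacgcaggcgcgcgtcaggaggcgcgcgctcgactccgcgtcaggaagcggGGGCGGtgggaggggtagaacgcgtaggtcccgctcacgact
Grin2c promoter: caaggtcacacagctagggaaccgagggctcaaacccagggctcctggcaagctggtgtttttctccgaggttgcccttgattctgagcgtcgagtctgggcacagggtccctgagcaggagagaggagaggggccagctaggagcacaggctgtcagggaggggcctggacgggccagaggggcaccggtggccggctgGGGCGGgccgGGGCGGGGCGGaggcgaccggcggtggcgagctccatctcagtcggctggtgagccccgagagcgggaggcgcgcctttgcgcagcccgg
Grm2 promoter: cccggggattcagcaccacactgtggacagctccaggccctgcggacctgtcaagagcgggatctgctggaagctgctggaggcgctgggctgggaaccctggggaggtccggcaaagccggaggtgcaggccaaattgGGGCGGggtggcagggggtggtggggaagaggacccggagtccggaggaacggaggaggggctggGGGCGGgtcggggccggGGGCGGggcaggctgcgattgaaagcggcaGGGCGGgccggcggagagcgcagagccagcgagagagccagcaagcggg
Grm3 promoter: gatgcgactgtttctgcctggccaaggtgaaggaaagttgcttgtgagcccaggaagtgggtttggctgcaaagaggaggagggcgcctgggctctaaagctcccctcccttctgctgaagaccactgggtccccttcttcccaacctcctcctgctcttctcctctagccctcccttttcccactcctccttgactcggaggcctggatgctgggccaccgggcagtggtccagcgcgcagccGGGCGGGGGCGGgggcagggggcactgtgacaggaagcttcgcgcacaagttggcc

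These windows lie at chr2:25319138-25319437, minus strand (Grin1), chr11:115267194-115267493, minus strand (Grin2c), chr9:106656060-106656359, minus strand (Grm2) and chr5:9725303-9725602, minus strand (Grm3). All 4 held the motif, with 1 match in Grin1, 3 in Grin2c, 4 in Grm2 and 2 in Grm3, so its presence did not separate the genes of either pair. CpG dinucleotides numbered 33, 22, 22 and 11 in the same order, against a median of 7 over all promoters of the table. The motif occurred in 35.7% of the 32851 promoters and in 18 of the 40 promoters (45.0%) found for 26 of the 38 genes. A match is a description of the sequence only.

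The libraries held 19039295 to 30451430 counts on genes. Reads not assigned to a gene, among them those matching several genes, made up 24.7 to 28.5% in the IPs and 32.2 to 37.8% in the inputs. Gene-level Htr4 was higher in cKO than in WT, at 26.9 to 30.2 against 13.6 to 15.9 CPM in the vDG IPs, 27.3 to 29.2 against 13.7 to 18.5 CPM in the vDG inputs and 47.2 to 51.8 against 25.0 to 33.9 CPM in the dDG inputs. These counts sum over all exons, so they do not check the removal of exon 5. Astrocyte markers (Gfap, Aqp4, Slc1a3, Aldh1l1 and Gja1) summed to 55.7 to 101 CPM in the WT IPs and 404 to 505 CPM in the WT vDG inputs, microglia markers to 2.53 to 4.54 and 19.3 to 31.3 CPM, and interneuron markers (Gad1, Gad2, Slc32a1, Pvalb, Sst and Dlx1) to 167 to 190.3 and 437 to 502 CPM. Granule cell markers summed to 1195 to 1328 CPM in the WT IPs and 958 to 1106 CPM in the inputs. No marker of any list was at 0 in all libraries of a group, the IPs included. In such bulk libraries, fewer cells of a type and less RNA per cell cannot be told apart.

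In the WT IP, the gene with the highest level per kilobase of exon was Gria1, at 125 ± 6.60 CPM per kb (mean ± SD, n = 3), followed by Gria2 at 76.9 ± 12.9 CPM per kb. Both encode AMPA receptor subunits, and Gria2 is the one whose edited form makes the channel nearly impermeable to calcium. The scaffolds Dlg3 (SAP102, 56.4 ± 1.40 CPM per kb), Dlgap1 (50.9 ± 6.74), Dlg4 (PSD-95, 45.9 ± 2.47), Dlg2 (PSD-93, 44.1 ± 7.64) and Shank1 (36.6 ± 3.70) came next, and then Gria3 (35.2 ± 9.34), Grm5 (25.6 ± 2.01) and Dlgap4 (21.1 ± 1.04). The libraries of Gria1 lay above all those of Gria2, and those of Gria2 above all those of Dlg3. From Dlg3 to Grm5 each gene overlapped with the next. This order depended on the division by exon length. In CPM, Gria2 stood above Gria1 in the WT IPs, at 1045, 1121 and 1423 against 713, 757 and 793. Dlg4 likewise stood above Dlg3, at 585, 646 and 596 against 335, 334 and 320 CPM. Of the 7 metabotropic receptors, Grm5, which couples to Gq, was the highest, Grm2 stood at 11.9 ± 0.850 CPM per kb, and Grm6, the receptor of retinal bipolar cells, had no count in any of the 15 libraries. The obligatory NMDA subunit gene Grin1 stood at 15.4 ± 0.764 CPM per kb and Grin2b at 15.7 ± 1.97, and these overlapped. At the lower end, Grin2c stood at 0.0892 ± 0.0324 and Grik1 at 0.0769 ± 0.0277 CPM per kb, resting on 8 to 16 and 9 to 18 counts per library.

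**Figure D1:**
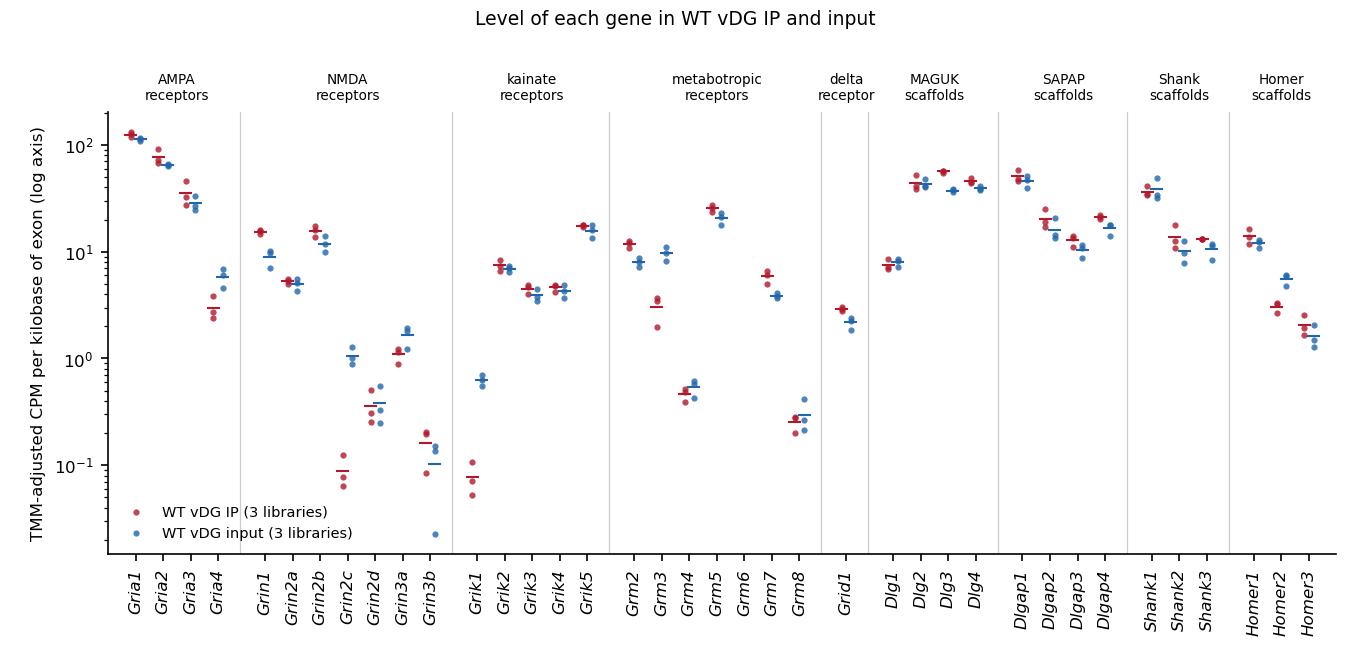
Levels of the receptor and scaffold genes in the WT libraries, in CPM per kilobase of exon on a log axis, with 1 point per library in vDG IP and vDG input (3 libraries each) and a short bar at the mean. Gria1 and Gria2 stood highest in the IP, and Grin2c and Grik1 lowest there of the genes with a count, while Grm6 is not drawn because it had none.

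IP and input of the vDG were compared to ask which of these transcripts the tagged excitatory neurons hold on ribosomes. In WT, 4 of the 37 genes tested were enriched (FDR under 0.05 and a log2 fold change of at least 0.32, in edgeR's quasi-likelihood test): the NMDA subunit gene Grin1, the metabotropic receptors Grm2 and Grm7, and the scaffold Dlg3. The background was 7.72% of the 15011 genes tested. Another 4 were depleted (fold change under 0.5), all receptors: Gria4, Grin2c, Grik1 and Grm3, against 11.4% of all genes. Counted by FDR alone, 6 genes were lower in the IP, with Grin3a and Homer2 added, against 16.1% of all genes. In cKO, 13 of 36 genes were enriched (background 11.4%), 4 were depleted (10.7%) and 5 were lower by FDR alone (15.7%). The median log2 fold change of the tested members was 0.16 in WT and 0.23 in cKO, beside 0.00 and -0.03 over all genes. With the trend of fold change on exon length removed, the medians of the members were 0.04 and 0.16, and without WT IP replicate 3 the WT median was 0.08.

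**Figure D2:**
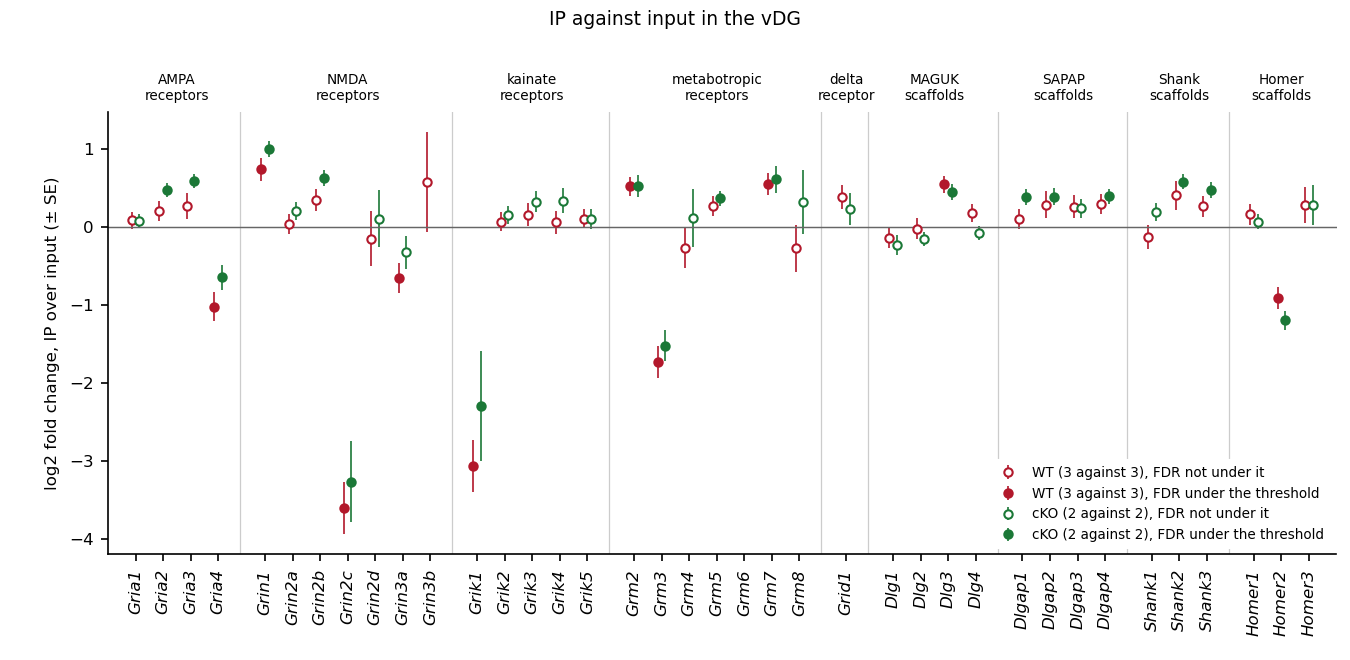
Log2 fold change of IP over input in vDG for each receptor and scaffold gene, with SE bars, in WT (3 against 3 libraries) and cKO (2 against 2). Filled points passed the FDR threshold and open points did not, and the points for Grin2c, Grik1 and Grm3 lie far below 0 in both genotypes.

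Among the NMDA receptors, the gene of the obligatory subunit and that of 1 of its partners parted. Grin1 (ENSMUSG00000026959, chr2:25291181-25319187, minus strand on mm10) measured 141, 151 and 156 CPM in the WT IPs and 67.6, 98.8 and 93.7 CPM in the WT vDG inputs. In cKO it measured 136 and 145 CPM in the IPs and 68.1 and 68.0 CPM in the inputs. IP and input did not overlap in either genotype, with a log2 fold change of 0.73 ± 0.14 (SE, edgeR FDR = 0.00172) in WT and 0.99 ± 0.10 (SE, edgeR FDR = 2.93e-05) in cKO. GENCODE annotates an antisense transcript, Grin1os, that shares 1307 bp of exon with Grin1, and the libraries do not mark strand. Grin2c (ENSMUSG00000020734, chr11:115249169-115267243, minus strand), a subunit gene known from cerebellar granule cells and from astrocytes, measured 0.321, 0.395 and 0.633 CPM in the WT IPs and 6.40, 5.05 and 4.47 CPM in the inputs. In cKO it measured 0.570 and 0.212 CPM in the IPs and 3.33 and 3.86 CPM in the inputs. The IPs were the low libraries in both genotypes, with a log2 fold change of -3.60 ± 0.33 (SE, edgeR FDR = 2.44e-06) in WT and -3.26 ± 0.52 (SE, edgeR FDR = 0.000793) in cKO. Grin2b, the partner common in forebrain, measured 363 and 326 CPM in the cKO IPs and 227 and 206 CPM in the cKO inputs, a log2 fold change of 0.62 ± 0.10 (SE, edgeR FDR = 0.000908). In WT its libraries, at 338, 395 and 435 CPM in the IPs and 247, 346 and 292 CPM in the inputs, differed by 0.35 ± 0.14 (SE, edgeR FDR = 0.0854), which missed the threshold. Grin3a, which lowers calcium flow when it joins the channel, measured 10.9, 15.2 and 14.2 CPM in the WT IPs and 15.0, 23.7 and 22.2 CPM in the inputs, which overlapped, with a log2 fold change of -0.65 ± 0.19 (SE, edgeR FDR = 0.0237). That call was lost without WT IP replicate 1 (FDR = 0.0805), input replicate 2 (0.103) or input replicate 3 (0.0976).

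Among the AMPA receptors, Gria4, the subunit gene prominent in interneurons, was the one depleted in WT. It measured 15.2, 17.1 and 24.1 CPM in the WT IPs and 28.8, 43.1 and 38.2 CPM in the WT inputs, without overlap, and its log2 fold change of -1.02 ± 0.19 (SE, edgeR FDR = 0.00119) lay just past the fold limit. It passed that limit under 7 of the 15 alternatives, not under DESeq2, its size factors, no count filter or all 15 libraries in one fit, nor without WT IP replicate 1 or 2 or input replicate 2 or 3, and kept its FDR call under all of them. In cKO it measured 18.4 and 15.6 CPM in the IPs and 26.6 and 24.8 CPM in the inputs, a log2 fold change of -0.65 ± 0.16 (SE, edgeR FDR = 0.00874) that passed the FDR but not the fold limit. Gria2 (ENSMUSG00000033981, chr3:80681450-80802835, minus strand) was enriched in cKO, at 1045 and 1007 CPM in the IPs and 713 and 714 CPM in the inputs, by 0.47 ± 0.09 (SE, edgeR FDR = 0.00232) on the log2 scale. Gria3 (ENSMUSG00000001986, chrX:41400854-41678601, plus strand) was enriched there as well, at 299 and 310.1 against 199 and 192 CPM, by 0.59 ± 0.09 (SE, edgeR FDR = 0.000823). The comparison of genotypes in the vDG input shares these cKO input libraries. In WT the log2 fold changes of Gria2 and Gria3 were 0.20 and 0.26, with FDRs of 0.269 and 0.282 in edgeR's test. Gria1 stood at 0.08 and 0.07 in WT and cKO and passed the test in neither.

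Of the kainate receptors, only Grik1 passed the test in either genotype. Grik1 (ENSMUSG00000022935, chr16:87895900-88290265, minus strand), the GluK1 subunit gene of interneurons, measured 0.721, 0.474 and 0.356 CPM in the WT IPs and 3.72, 4.19 and 4.70 CPM in the inputs. All 3 IPs lay below all 3 inputs, with a log2 fold change of -3.06 ± 0.34 (SE, edgeR FDR = 1.33e-05). In cKO it measured 1.47 and 0.0847 CPM in the IPs and 3.83 and 3.43 CPM in the inputs, a log2 fold change of -2.30 ± 0.70 (SE, edgeR FDR = 0.0291). The cKO IPs rested on 31 and 2 counts, and the log2 fold change ran from -5.35 to -1.34 over the alternatives, being lowest without IP replicate 1. The cKO call was lost without either cKO input (FDR = 0.132 and 0.103) and in DESeq2 (FDR = 0.296). Grik2, Grik3, Grik4 and Grik5 had log2 fold changes of 0.06, 0.16, 0.06 and 0.11 in WT and did not pass the test.

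The metabotropic receptors of group II, which lower cAMP through Gi, stood on opposite sides. Grm2 (ENSMUSG00000023192, chr9:106643095-106656082, minus strand), a presynaptic receptor of granule cell axons, measured 53.6, 61.6 and 59.5 CPM in the WT IPs and 35.3, 43.1 and 39.3 CPM in the inputs, and 75.0 and 57.3 against 45.2 and 43.7 CPM in cKO. Every IP lay above every input of its genotype, with a log2 fold change of 0.52 ± 0.13 (SE, edgeR FDR = 0.00894) in WT and 0.52 ± 0.14 (SE, edgeR FDR = 0.0152) in cKO. An annotated transcript on the other strand, Gm28111, shares 470 bp of its exons. Grm3 (ENSMUSG00000003974, chr5:9485541-9725170, minus strand), the group II receptor that astrocytes also make, measured 6.05, 10.6 and 11.2 CPM in the WT IPs and 25.1, 33.9 and 29.9 CPM in the inputs, and 6.79 and 5.72 against 18.3 and 16.4 CPM in cKO. Every IP lay below every input, with a log2 fold change of -1.73 ± 0.21 (SE, edgeR FDR = 3.52e-05) in WT and -1.52 ± 0.20 (SE, edgeR FDR = 0.000189) in cKO. Grm7, a group III receptor of the presynaptic active zone, measured 29.4, 35.8 and 38.4 CPM in the WT IPs and 22.8, 23.9 and 21.7 CPM in the inputs, a log2 fold change of 0.54 ± 0.14 (SE, edgeR FDR = 0.0116). Its cKO libraries stood at 23.9 and 27.2 against 14.3 and 18.1 CPM, a log2 fold change of 0.61 ± 0.17 (SE, edgeR FDR = 0.0181), and the WT call was lost without WT input replicate 3 (FDR = 0.0508). Grm5 was enriched in cKO, at 216 and 204 CPM in the IPs and 161 and 154 CPM in the inputs, by 0.37 ± 0.10 (SE, edgeR FDR = 0.0144). In WT its log2 fold change was 0.26 ± 0.12 (SE, edgeR FDR = 0.14). Grid1, the delta receptor gene, whose protein binds neurexin through cerebellins, measured 16.7, 18.3 and 17.4 CPM in the WT IPs and 11.1, 13.4 and 14.4 CPM in the inputs, a log2 fold change of 0.38 ± 0.16 (SE, edgeR FDR = 0.0946) that missed the threshold.

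Of the 14 scaffold genes, 10 had a log2 fold change above 0 in each genotype, while Homer2 was lower in the IP. Over all genes, 50.2% lay above 0 in WT and 47.6% in cKO. Dlg3 (ENSMUSG00000000881, chrX:100767722-100818410, plus strand) measured 335, 334 and 320.3 CPM in the WT IPs and 224, 220.1 and 211 CPM in the inputs, and 240.1 and 249 against 164 and 184 CPM in cKO. The IPs were the higher libraries in both genotypes, with a log2 fold change of 0.54 ± 0.11 (SE, edgeR FDR = 0.00241) in WT and 0.44 ± 0.10 (SE, edgeR FDR = 0.00715) in cKO. Homer2, a coiled-coil Homer that links group I receptors to calcium stores, measured 42.0, 33.7 and 40.4 CPM in the WT IPs and 74.2, 76.1 and 59.8 CPM in the inputs, and 34.2 and 38.8 against 76.6 and 85.0 CPM in cKO. It was lower in the IP without overlap, by a log2 fold change of -0.91 ± 0.14 (SE, edgeR FDR = 0.000322) in WT, inside the fold limit, and by -1.20 ± 0.12 (SE, edgeR FDR = 3.03e-05) in cKO, past it. In cKO the SAPAP genes Dlgap1 (1058 and 1201 against 867 and 807 CPM), Dlgap2 (107 and 124 against 83.4 and 87.6 CPM) and Dlgap4 (198 and 203 against 154 and 141 CPM) were enriched, by 0.38, 0.38 and 0.39 on the log2 scale (SE 0.10, 0.11 and 0.10; edgeR FDR = 0.0127, 0.0222 and 0.0107). Shank2 was enriched there at 199 and 202 CPM in the IPs and 126 and 134 CPM in the inputs, by 0.58 ± 0.10 (SE, edgeR FDR = 0.00114). Shank3 stood at 158 and 146 against 105 and 106 CPM, by 0.47 ± 0.10 (SE, edgeR FDR = 0.00457). None of the groups of these cKO calls overlapped. In WT the lowest FDR of the SAPAP genes was that of Dlgap4, at 178, 169.6 and 187 CPM in the IPs and 119, 151 and 151 CPM in the inputs (log2 fold change 0.29 ± 0.12 SE, edgeR FDR = 0.106). That of the Shanks was Shank2's, at 117, 136 and 193 against 83.7, 136 and 106 CPM (log2 fold change 0.40 ± 0.19 SE, edgeR FDR = 0.138), and those libraries overlapped. The PSD-95 gene Dlg4 stood at 0.18 in WT and -0.08 in cKO, and neither passed.

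The glial and interneuron lists moved with the depleted receptors: the IP was called lower for 5 of 5 astrocyte and 5 of 6 interneuron markers in each genotype, and in WT for 4 of 4 microglia and 4 of 6 oligodendrocyte lineage markers. In cKO, astrocyte markers summed to 46.6 to 60.6 CPM in the IPs and 294 to 331 CPM in the inputs, and interneuron markers to 115 to 131 and 369 to 375 CPM. In the same cKO groups, microglia markers summed to 3.42 to 3.47 and 13.1 to 18.0 CPM. Oligodendrocyte lineage markers summed to 185 to 219 and 294 to 329 CPM there. Mossy cell, CA pyramidal cell, endothelial and immature granule cell markers overlapped between IP and input in both genotypes. The part of glia and interneurons in the values of Grin2c, Grm3, Grik1 and Gria4 was not tested. The count of enriched genes in WT was 7 without WT vDG input replicate 2, and that in cKO was 8 without cKO vDG input replicate 2, when Dlgap1, Dlgap2, Dlgap4, Grm2 and Grm5 lost their calls, as did the depleted Grik1. Without cKO vDG input replicate 1, Dlg3, Dlgap2, Grm7, Gria4 and Grik1 lost theirs, without cKO IP replicate 1 Grm2, and without cKO IP replicate 2 Dlgap1 and Dlgap2, with FDRs from 0.0522 to 0.165 over all calls lost in cKO in this way. Scaling by library size alone moved the median of all genes to -0.13 in WT and -0.20 in cKO and gave 4 enriched genes in cKO. With the length trend removed, 8 genes were enriched in cKO, and Gria2, Grin2b, Grm5, Dlgap1 and Dlgap4 lost their calls there. The log2 fold changes were then 0.24 for Gria2, 0.28 for Grin2b, 0.25 for Grm5 and 0.12 for Dlgap1.

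The inputs of vDG and dDG were compared to ask how these transcripts are spread along the dorsoventral axis. In WT, 8 of 37 genes were higher in vDG (FDR under 0.05; background 9.26% of 15412 genes): Gria4, Grin3a, Grik1, Grik4, Grm8, Dlg2, Dlgap4 and Shank2. Another 3, Grik3, Grm2 and Dlg3, were lower (background 6.09%). In cKO, 6 of 36 genes were higher (background 8.56%), of which Grin3a, Grik1, Grik4 and Dlgap4 were also called in WT. There, 9 were lower (background 8.47%), including the same Grik3, Grm2 and Dlg3. The median log2 fold change of the members was 0.07 in WT and -0.07 in cKO, beside -0.01 and 0.01 over all genes. These medians turned with single libraries: in WT the median was -0.03 without vDG input replicate 2 and 0.17 without vDG input replicate 1, and in cKO it was 0.01 without dDG input replicate 2. The vDG inputs are the libraries used against the IP above, so the comparisons share them.

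**Figure D3:**
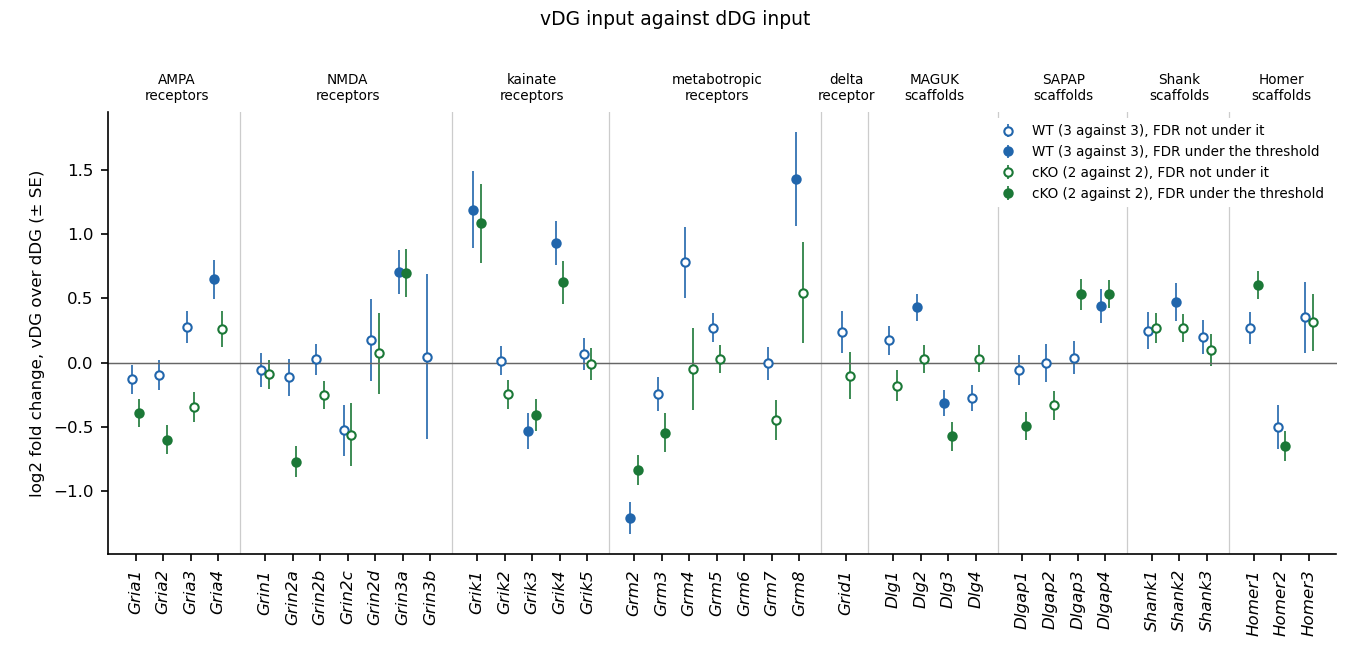
Log2 fold change of vDG over dDG input for each receptor and scaffold gene, with SE bars, in WT (3 against 3 libraries) and cKO (2 against 2). Filled points passed the FDR threshold, and Grm2 lies below 0 and Grik4 above 0 in both genotypes.

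The largest dorsal excess in WT was that of Grm2, which measured 103, 89.9 and 83.5 CPM in the WT dDG inputs against 35.3, 43.1 and 39.3 CPM in the vDG inputs. In cKO it measured 80.7 and 78.8 against 45.2 and 43.7 CPM. The regions did not overlap in either genotype, with a log2 fold change of -1.21 ± 0.12 (SE, edgeR FDR = 3.51e-06) in WT and -0.83 ± 0.12 (SE, edgeR FDR = 3.33e-05) in cKO. Its relative Grm3 measured 22.9 and 28.0 CPM in the cKO dDG inputs and 18.3 and 16.4 CPM in the cKO vDG inputs, a log2 fold change of -0.54 ± 0.15 (SE, edgeR FDR = 0.0167). In WT, Grm3 stood at 34.3, 36.3 and 36.3 CPM in dDG, all above the vDG inputs, but the difference of -0.24 ± 0.13 (SE, edgeR FDR = 0.256) missed the threshold. Grm8, a group III receptor, was higher in WT vDG, at 2.12, 2.61 and 4.12 CPM against 0.944, 1.65 and 0.793 CPM, by 1.43 ± 0.37 (SE, edgeR FDR = 0.0127). It was low throughout, with 21 to 33 counts per WT dDG library, and the call was lost without WT vDG input replicate 3 (FDR = 0.108). Grid1 measured 11.1, 13.4 and 14.4 CPM in the WT vDG and 12.2, 9.58 and 11.6 CPM in the WT dDG inputs (log2 fold change 0.24 ± 0.16 SE, edgeR FDR = 0.369), and 9.07 and 11.3 against 11.4 and 10.5 CPM in cKO (log2 fold change -0.10 ± 0.18 SE, edgeR FDR = 0.765), and the regions overlapped in both.

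The kainate receptors differed by subunit. Grik4, a high-affinity subunit gene best known from CA3 pyramidal cells, measured 29.3, 21.8 and 25.5 CPM in the WT vDG and 16.3, 10.1 and 14.3 CPM in the WT dDG inputs, and 17.3 and 21.9 against 13.4 and 12.1 CPM in cKO. Its vDG libraries were all higher, with a log2 fold change of 0.93 ± 0.17 (SE, edgeR FDR = 0.00119) in WT and 0.63 ± 0.17 (SE, edgeR FDR = 0.0117) in cKO. Grik1 measured 3.72, 4.19 and 4.70 against 2.38, 2.24 and 1.06 CPM in WT and 3.83 and 3.43 against 1.74 and 1.69 CPM in cKO, in the same order of regions. It was higher in vDG by 1.19 ± 0.30 (SE, edgeR FDR = 0.0114) in WT and 1.08 ± 0.31 (SE, edgeR FDR = 0.0173) in cKO, without overlap. Grik3, which forms low-affinity receptors, measured 33.7, 40.4 and 30.9 against 60.3, 45.4 and 48.2 CPM in WT and 31.0 and 32.2 against 41.9 and 42.7 CPM in cKO. It was the kainate gene lower in vDG, without overlap, at a log2 fold change of -0.53 ± 0.14 (SE, edgeR FDR = 0.0156) in WT and -0.41 ± 0.12 (SE, edgeR FDR = 0.027) in cKO. Grik2 and Grik5 passed the test in neither genotype.

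Of the AMPA and NMDA receptors, Gria4 and Grin3a were higher in vDG. Gria4 measured 28.8, 43.1 and 38.2 CPM in the WT vDG and 21.3, 25.9 and 24.1 CPM in the WT dDG inputs, a log2 fold change of 0.65 ± 0.15 (SE, edgeR FDR = 0.00651). Grin3a measured 15.0, 23.7 and 22.2 against 12.6, 14.0 and 11.3 CPM in WT and 17.5 and 14.4 against 8.50 and 11.3 CPM in cKO. It was higher in vDG without overlap, by 0.71 ± 0.17 (SE, edgeR FDR = 0.00867) in WT and 0.70 ± 0.18 (SE, edgeR FDR = 0.0114) in cKO. In cKO, Gria1, Gria2 and Grin2a were lower in vDG. Gria1 measured 549 and 542 CPM in vDG and 677 and 762 CPM in dDG there, a log2 fold change of -0.39 ± 0.11 (SE, edgeR FDR = 0.0165). Gria2 measured 713 and 714 against 1022 and 1149.7 CPM (log2 fold change -0.60 ± 0.11 SE, edgeR FDR = 0.000616), and Grin2a, the subunit gene of mature NMDA receptors, 63.5 and 68.7 against 104 and 123 CPM (log2 fold change -0.77 ± 0.12 SE, edgeR FDR = 0.000122). In WT these 3 genes had log2 fold changes of -0.13, -0.10 and -0.11 and passed no test, and their WT regions overlapped. This difference between genotypes was tested as an interaction, described after the comparison of genotypes.

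Among the scaffolds, the calls of WT and cKO overlapped in Dlgap4 and Dlg3. Dlgap4 measured 119, 151 and 151 CPM in the WT vDG and 91.2, 98.7 and 124 CPM in the WT dDG inputs, which overlapped, and 154 and 141 against 106 and 99.3 CPM in cKO, which did not. It was higher in vDG by 0.44 ± 0.13 (SE, edgeR FDR = 0.0301) in WT and 0.53 ± 0.11 (SE, edgeR FDR = 0.00197) in cKO. Dlg3 measured 224, 220.1 and 211 against 267, 284 and 273 CPM in WT and 164 and 184 against 251 and 269 CPM in cKO, and was lower in vDG, at log2 fold changes of -0.31 ± 0.10 (SE, edgeR FDR = 0.047) and -0.57 ± 0.11 (SE, edgeR FDR = 0.00117). The regions did not overlap for Dlg3, yet its WT call was lost whichever of the 6 libraries was left out (FDR = 0.0666 to 0.179). Dlg2 was higher in WT vDG, at 672, 780.4 and 657 against 538, 498 and 552 CPM (log2 fold change 0.43 ± 0.11 SE, edgeR FDR = 0.01), and Shank2, whose libraries overlapped, at 83.7, 136 and 106 against 81.9, 69.3 and 86.2 CPM (log2 fold change 0.47 ± 0.15 SE, edgeR FDR = 0.0395). The WT calls of Dlgap4 and Shank2 were each lost without vDG input replicate 2 or 3 or dDG input replicate 1 or 2 (FDR = 0.115 to 0.131 and 0.0664 to 0.238), and the log2 fold change of Shank2 was 0.28 without vDG input replicate 2. In cKO, Homer1, which has long and activity-induced short forms that gene counts do not part, measured 169.9 and 157 CPM in vDG and 109 and 107 CPM in dDG, a log2 fold change of 0.61 ± 0.11 (SE, edgeR FDR = 0.000557). Dlgap3 stood at 50.3 and 55.1 against 36.4 and 36.9 CPM there (log2 fold change 0.53 ± 0.12 SE, edgeR FDR = 0.00452). Both were higher in vDG, while Homer2 and Dlgap1 were lower. Homer2 measured 76.6 and 85.0 against 119.7 and 135 CPM (log2 fold change -0.65 ± 0.12 SE, edgeR FDR = 0.000557), and Dlgap1 867 and 807 against 1181 and 1187 CPM (log2 fold change -0.49 ± 0.11 SE, edgeR FDR = 0.00272). Homer2 in WT, at 74.2, 76.1 and 59.8 against 134, 95.0 and 73.5 CPM, differed by -0.50 ± 0.17 (SE, edgeR FDR = 0.059) with overlap, and it was called lower under 7 of the 15 alternatives, DESeq2 among them (FDR = 0.0309). Shank2 in cKO, at 126 and 134 against 111 and 106 CPM, differed by 0.27 ± 0.11 (SE, edgeR FDR = 0.0978) and was called higher under 4 of the 13 alternatives, 2 of them with the length trend removed (FDR = 0.00117 to 0.0415).

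Cell type markers also differed between the regions. Mossy cell markers (Calb2, Drd2 and Csf2rb2) summed to 68.7 to 87.2 CPM in the WT vDG and 4.85 to 6.14 CPM in the WT dDG inputs, and 1 of 3 was called higher in WT and 2 of 3 in cKO. Interneuron markers summed to 437 to 502 and 285 to 351 CPM, with 3 of 6 called higher in each genotype, and granule cell markers to 958 to 1106 and 1504 to 1526 CPM, with 3 of 5 called lower in WT and 4 of 5 in cKO. CA pyramidal cell markers summed to 42.9 to 54.4 against 33.8 to 38.3 CPM in WT and 40.4 to 44.0 against 26.3 to 31.6 CPM in cKO, with 2 of 5 called higher and 1 lower in WT and 3 higher and 1 lower in cKO. The part of these cells in the differences of Grm2, Grik1, Grik4, Gria4 and Grin3a was not tested. Without WT vDG input replicate 2, WT vDG input replicate 3 or WT dDG input replicate 2, the count of higher genes in WT was 5, 4 and 5, and without WT vDG input replicate 3 or WT dDG input replicate 1 the count of lower genes was 1. In cKO, Grik1 and Grik3 lost their calls without vDG input replicate 1 or either dDG input, Grin3a without vDG or dDG replicate 1, Grik4 without vDG or dDG replicate 2, and Gria1 and Grm3 without dDG replicate 2, with FDRs from 0.0507 to 0.272. In WT, Grin3a lost its call without vDG input replicate 2, Grik1 without vDG input replicate 3, Grik3 without vDG input replicate 3 or dDG input replicate 1, and Dlg2 without dDG input replicate 2 (FDR = 0.0588 to 0.0905). Grm2, Grik4 and Gria4 kept their WT calls under each of the 15 alternatives.

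The cKO was compared with WT in 3 settings to ask what the loss of functional Htr4 changed. In the vDG input, 3 receptor genes were lower in cKO (FDR under 0.05; background 2.33% of 15786 genes): Gria2, Gria3 and Grm3. No member was higher, against 0.108% of all genes, with 1, Dlg4, at an unadjusted p under 0.05 (4.23% of all genes) and 0 by DESeq2. In the vDG IP, no member passed an FDR of 0.1, against a background of 0.0699% higher and 0.35% lower of 14300 genes. At an unadjusted p under 0.05, 4 members were higher and 5 lower in the IP, against 4.14% and 7.57% of all genes, and DESeq2 called 1, Dlg3, lower. In the dDG input, no member passed an FDR of 0.05, against 0.0065% higher and 0.026% lower of 15383 genes. At an unadjusted p under 0.05, 3 members were higher and 4 lower there, against 5.23% and 7% of all genes, and DESeq2 called 2, Dlgap1 and Shank2, higher.

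**Figure D4:**
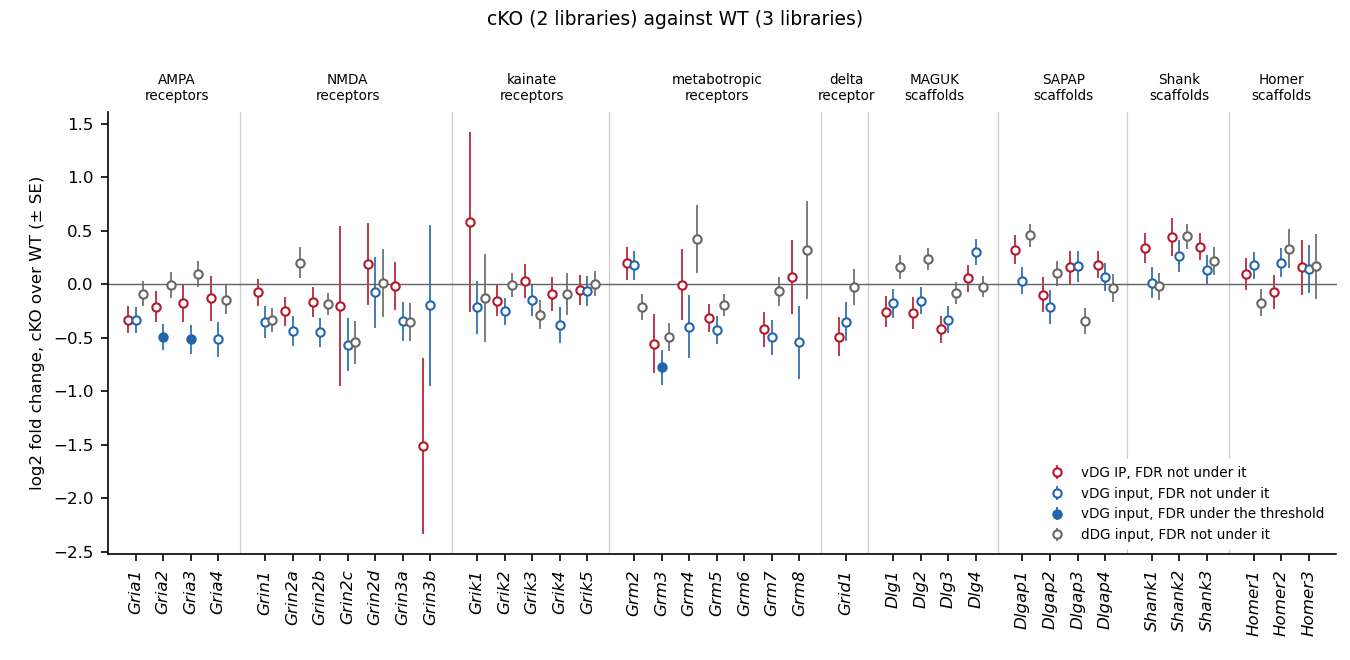
Log2 fold change of cKO over WT (2 against 3 libraries) for each receptor and scaffold gene in the IP, the vDG input and the dDG input, with SE bars. Filled points passed the FDR threshold: Gria2, Gria3 and Grm3 in the vDG input, where 22 of 23 receptor genes lie below 0 (48.6% of all genes).

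In the vDG input the sign of the estimates was counted for receptors and scaffolds, without a test between them. Of 23 receptor genes tested, 22 had a log2 fold change below 0, with a median of -0.39, while 10 of 14 scaffold genes lay above 0, with a median of 0.10. Over all genes 8116 of 15786 lay above 0 and the median was 0.01. The receptor medians by class were -0.51 for AMPA, -0.35 for NMDA, -0.22 for kainate and -0.46 for metabotropic receptors. Both cKO libraries lay below all WT libraries for 13 members, against 17.6% of all genes, and above them for 4, against 15%. Of the 13, 4 were the AMPA genes. These are counts over genes measured in the same 5 libraries.

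Gria2 measured 713 and 714 CPM in the cKO vDG inputs and 978, 1026 and 1001 CPM in the WT vDG inputs. Both cKO libraries lay below all 3 WT libraries, with a log2 fold change of -0.50 ± 0.12 (SE, edgeR FDR = 0.0268). Gria3 measured 199 and 192 against 244, 326 and 267 CPM, again without overlap, with a log2 fold change of -0.52 ± 0.13 (SE, edgeR FDR = 0.0382). Grm3 measured 18.3 and 16.4 against 25.1, 33.9 and 29.9 CPM, also without overlap, and changed the most of the 3, with a log2 fold change of -0.78 ± 0.16 (SE, edgeR FDR = 0.00986). Astrocyte markers moved the same way: their sum was 294 to 331 CPM in the cKO and 404 to 505 CPM in the WT vDG inputs, 5 of 5 had a log2 fold change below 0 (median -0.62) and 3 were called lower. Microglia markers summed to 13.1 to 18.0 against 19.3 to 31.3 CPM and interneuron markers to 369 to 375 against 437 to 502 CPM, also without overlap, and 0 of 4 and 0 of 6 were called. The part of these cells in the calls was not tested. Leaving out a cKO library left a single one, assumed to vary like the others, and ended all 3 calls: without replicate 1 the FDRs were 0.284 for Gria2, 0.327 for Gria3 and 0.162 for Grm3, and without replicate 2 they were 0.2, 0.3 and 0.191. Without WT replicate 2, Gria3 lost its call (FDR = 0.0907), without WT replicate 3, Grm3 alone was called, and without WT replicate 1 the count was 7. With the length trend removed Grm3 alone was called, and the log2 fold changes were -0.35 for Gria2 and -0.43 for Gria3. With the replicate number fitted as a block, Gria2 lost its call (log2 fold change -0.50, edgeR FDR = 0.0619). When all 15 libraries were fitted together 0 of the 3 passed (FDR = 0.0666 to 0.169), at -0.49 for Gria2, -0.51 for Gria3 and -0.77 for Grm3.

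The other receptors of the vDG input missed the threshold. Grin2b measured 227 and 206 CPM in cKO and 247, 346 and 292 CPM in WT (log2 fold change -0.45 ± 0.14 SE, edgeR FDR = 0.0785), and Grik4 17.3 and 21.9 against 29.3, 21.8 and 25.5 CPM (log2 fold change -0.39 ± 0.17 SE, edgeR FDR = 0.276). Grid1 stood at 9.07 and 11.3 against 11.1, 13.4 and 14.4 CPM (log2 fold change -0.35 ± 0.18 SE, edgeR FDR = 0.385). The single receptor above 0 was Grm2, at 45.2 and 43.7 CPM in cKO and 35.3, 43.1 and 39.3 CPM in WT (log2 fold change 0.17 ± 0.14 SE, edgeR FDR = 0.593), so the members of group II differed in sign. Among the scaffolds the lowest FDRs by class belonged to Dlg3 (164 and 184 against 224, 220.1 and 211 CPM, log2 fold change -0.33 ± 0.13 SE, edgeR FDR = 0.189) and Shank2 (126 and 134 against 83.7, 136 and 106 CPM, log2 fold change 0.26 ± 0.15 SE, edgeR FDR = 0.44), followed by Homer2 (76.6 and 85.0 against 74.2, 76.1 and 59.8 CPM, log2 fold change 0.20 ± 0.14 SE, edgeR FDR = 0.523) and Dlgap2 (83.4 and 87.6 against 81.9, 128 and 87.3 CPM, log2 fold change -0.21 ± 0.16 SE, edgeR FDR = 0.553). PSD-95, encoded by Dlg4, was at 625 and 656 CPM in cKO and 511, 499 and 546 CPM in WT, with 0.30 ± 0.12 (SE, edgeR FDR = 0.225).

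In the vDG IP the lowest FDR was that of Dlg3, which measured 240.1 and 249 CPM in cKO and 335, 334 and 320.3 CPM in WT. Both cKO libraries lay below the WT libraries, with a log2 fold change of -0.42 ± 0.13 (SE, edgeR FDR = 0.231). The 3 Shank genes all had log2 fold changes above 0. Shank3 stood at 158 and 146 CPM in cKO and 119.9, 119.7 and 121 CPM in WT (log2 fold change 0.35 ± 0.13 SE, edgeR FDR = 0.323), Shank1 at 539 and 428 against 360.2, 364 and 429 CPM (log2 fold change 0.34 ± 0.14 SE, edgeR FDR = 0.377) and Shank2 at 199 and 202 against 117, 136 and 193 CPM (log2 fold change 0.44 ± 0.18 SE, edgeR FDR = 0.363). The cKO libraries of Shank2 and Shank3 lay above all WT libraries, and those of Shank1 overlapped with them. Of 23 receptors, 18 lay below 0 (median -0.15), against 50.2% of all genes. Gria1 measured 579 and 609.9 CPM in cKO and 713, 757 and 793 CPM in WT (log2 fold change -0.33 ± 0.12 SE, edgeR FDR = 0.334). Grm7 measured 23.9 and 27.2 against 29.4, 35.8 and 38.4 CPM (log2 fold change -0.42 ± 0.17 SE, edgeR FDR = 0.355), and Grid1 12.0 and 12.7 against 16.7, 18.3 and 17.4 CPM (log2 fold change -0.49 ± 0.18 SE, edgeR FDR = 0.331). Both cKO libraries lay below all WT libraries for 10 members, against 16.8% of all genes, and above them for 4, against 14%. Of the remaining classes, the lowest FDRs were those of Grin2a (77.1 and 80.6 against 90.1, 95.2 and 98.9 CPM, log2 fold change -0.25 ± 0.13 SE, edgeR FDR = 0.478), Grik2 (93.5 and 83.4 against 88.2, 97.7 and 111 CPM, log2 fold change -0.15 ± 0.14 SE, edgeR FDR = 0.717), Dlgap1 (1058 and 1201 against 827, 857 and 1049 CPM, log2 fold change 0.32 ± 0.14 SE, edgeR FDR = 0.392) and Homer1 (185 and 170.2 against 142, 165 and 195 CPM, log2 fold change 0.10 ± 0.15 SE, edgeR FDR = 0.844). Interneuron markers summed to 115 to 131 CPM in the cKO and 167 to 190.3 CPM in the WT IPs, without overlap, with 1 of 5 called lower. Granule cell markers summed to 1364 to 1443 against 1195 to 1328 CPM, higher in cKO without overlap, with 0 of 5 called. The part of these cells in the IP values was not tested. Without WT IP replicate 3, 1 member was called higher.

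In the dDG input the lowest FDRs belonged to Dlgap1, Shank2 and Grm3. Dlgap1 measured 1181 and 1187 CPM in cKO and 855, 772 and 957 CPM in WT, without overlap, with a log2 fold change of 0.45 ± 0.11 (SE, edgeR FDR = 0.157). Shank2 measured 111 and 106 against 81.9, 69.3 and 86.2 CPM (log2 fold change 0.45 ± 0.12 SE, edgeR FDR = 0.167), and Grm3 22.9 and 28.0 against 34.3, 36.3 and 36.3 CPM (log2 fold change -0.49 ± 0.13 SE, edgeR FDR = 0.171), also without overlap. Grin1 stood at 72.6 and 73.1 CPM in cKO and 95.2, 84.6 and 95.0 CPM in WT, with both cKO libraries below (log2 fold change -0.33 ± 0.11 SE, edgeR FDR = 0.238). Of the other classes, Gria4 (log2 fold change -0.15 ± 0.14 SE, edgeR FDR = 0.732), Grik3 (log2 fold change -0.29 ± 0.14 SE, edgeR FDR = 0.429), Grid1 (log2 fold change -0.02 ± 0.17 SE, edgeR FDR = 0.978), Dlg2 (log2 fold change 0.24 ± 0.10 SE, edgeR FDR = 0.379) and Homer2 (log2 fold change 0.33 ± 0.19 SE, edgeR FDR = 0.499) had the lowest FDRs. Gria2, at 1022 and 1149.7 CPM in cKO and 1267, 969.6 and 1025 CPM in WT, and Gria3, at 223 and 277 against 252, 207 and 241 CPM, overlapped here, with log2 fold changes of -0.01 and 0.09. Astrocyte markers summed to 317 to 426 CPM in the cKO and 443 to 465 CPM in the WT dDG inputs, without overlap. Microglia markers (a mean of 19.8 against 21.8 to 39.1 CPM), CA pyramidal cell markers (26.3 to 31.6 against 33.8 to 38.3 CPM) and mossy cell markers (4.31 to 4.38 against 4.85 to 6.14 CPM) were also lower in cKO without overlap, and edgeR called no marker of these 4 lists, while DESeq2 called Slc1a3 lower. Granule cell, interneuron, endothelial and immature granule cell markers overlapped. Oligodendrocyte lineage markers were lower in cKO without overlap as well, at 399.0 to 399.3 against 404 to 436 CPM. The part of these cells in the dDG values was not tested. The members' median was -0.02, as was that of all genes. Without WT dDG input replicate 3, 1 member was called higher.

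Whether the genotype difference depended on the region was tested as an interaction over the 10 inputs. No member passed an FDR of 0.05 in edgeR, nor did any of the 16306 genes (0%). At an unadjusted p under 0.05, 3 members had an estimate above and 6 one below 0, against 5.02% and 7.31% of all genes, and DESeq2 called 0 members. The lowest FDR was that of Gria3, whose cKO difference was lower in vDG than in dDG by -0.62 ± 0.19 (SE, edgeR FDR = 0.193) on the log2 scale. Grin2a followed with -0.66 ± 0.21 (SE, edgeR FDR = 0.213) and Gria2 with -0.50 ± 0.17 (SE, edgeR FDR = 0.225). Gria2 and Gria3 thus passed in the vDG input and not in the dDG input, without a called difference between the regions. Of 37 members, 29 had an estimate below 0, against 50.9% of all genes. Their median was -0.25, and it was -0.07 with the length trend removed and -0.12 without WT vDG input replicate 2. The interaction of genotype with fraction over the vDG libraries gave 0 calls among members and among 16093 genes (0%), with FDRs of 1, 0 members at an unadjusted p under 0.05 and 0 by DESeq2. Its estimate was above 0 for 29 of 37 members, against 52.9% of all genes, and 0.30 ± 0.17 (SE) for Gria2. The 13 enriched genes in cKO and 4 in WT are therefore counts of 2 comparisons with unequal numbers of libraries, and no member's enrichment was called different between the genotypes.

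The remaining genes had no call in any of the 7 comparisons. These were 11 of the 38: Grin2d, Grin3b, Grik2, Grik5, Grm4, Grm6, Grid1, Dlg1, Dlg4, Shank1 and Homer3. Grm6, without a count, was tested nowhere, and Grin3b, which rested on 2 to 17 counts per library, did not pass the count filter in the 2 comparisons within cKO and in that of the genotypes in dDG. Grm4, a group III receptor best known from cerebellar granule cells, had from 35 to 108 counts per library and came nearest to a call between the WT regions, at 2.53 to 3.71 CPM in vDG and 1.75 to 2.05 CPM in dDG (log2 fold change 0.78 ± 0.27 SE, edgeR FDR = 0.0664). Under the alternatives, Grm4 and Dlg4 were called between the WT regions in 1 and 3 settings, Shank1 between the cKO regions in 4 and Grid1 in the WT IP in 1. Dlg1 (SAP97) stood at 65.1 to 90.9 CPM and Homer3 at 2.54 to 9.06 CPM over the 15 libraries.

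Related genes of the glutamate synapse were read in the same fits. Of 18 auxiliary and trafficking proteins of AMPA and kainate receptors, 1 was enriched and 3 were depleted in the WT IP, where 7.72% and 11.4% of all genes were: Nsf, the ATPase of membrane fusion that binds GluA2, at 0.57 ± 0.13 (log2 fold change ± SE), and Cacng4 (-3.29 ± 0.45), Cacng7 (-1.30 ± 0.17) and Grip2 (-1.27 ± 0.40). Cacng4 and Cacng7 encode TARPs, the transmembrane AMPA receptor regulatory proteins. Of these 18, 4 were higher and 3 lower in WT vDG than dDG (9.26% and 6.09% of all genes), led by Cacng5 (-1.27 ± 0.20), Gsg1l (-1.16 ± 0.19), Grip1 (0.92 ± 0.15) and the kainate receptor partner Neto1 (0.86 ± 0.11). Of the 24 other postsynaptic organisers, 10 were enriched and 0 lower in the WT IP (median 0.37), and 16 and 0 in the cKO IP (median 0.49), where 7.72% and 11.4% of all genes were enriched. Kalrn (1.06 ± 0.11), Baiap2 (0.72 ± 0.12), Tanc1 (0.69 ± 0.11) and Iqsec2 (0.60 ± 0.16) led in WT. Of 9 genes of glutamate release and uptake, Slc17a7 (VGLUT1) was enriched in the WT IP at 0.51 ± 0.13, and the glial Slc1a3 (-2.27 ± 0.21), Glul (-2.20 ± 0.12) and Slc1a2 (-1.61 ± 0.15) were depleted.

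Between genotypes, the same lists had calls in the vDG input alone. There, where 2.33% of all genes were called lower, 1 auxiliary gene, Nsf (-0.49 ± 0.13), 2 organisers, Cyfip1 (-0.70 ± 0.14) and Cnksr2 (-0.61 ± 0.13), and 3 uptake genes, Slc1a2 (-0.92 ± 0.13), Slc1a3 (-0.72 ± 0.14) and Glul (-0.63 ± 0.13), were lower in cKO. Slc1a2 and Slc1a3 are the glutamate transporters of astrocytes and Glul is their glutamine synthetase, and Slc1a3 also stands in the astrocyte marker list. The medians were -0.16 for the 18 auxiliary genes, -0.17 for the 24 organisers and -0.33 for the 9 release and uptake genes, beside 0.01 over all genes. In the IP and the dDG input, 0 genes of these lists passed edgeR's test. At an unadjusted p under 0.05, 1 of the 50 genes tested was higher and 10 were lower in the IP (4.14% and 7.57% of all genes), and 5 of 51 were higher and 3 lower in the dDG input (5.23% and 7%). DESeq2 called Neto2, Iqsec2, Glul and Slc1a3 in the IP and Slc1a3 in the dDG input.

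The make-up of each receptor class was followed as the share of each gene in the class's summed CPM per kilobase. Gria1 held 52.3 ± 3.58% (SD, n = 3) of AMPA receptor transcripts in the WT IP, Gria2 31.9 ± 1.46%, Gria3 14.5 ± 2.04% and Gria4 1.23 ± 0.153%. On counts, not divided by exon length, the first 2 changed places, with Gria2 at 51.5% and Gria1 at 32.8%. The Gria2 share was 28.5% and 28.9% in the cKO vDG inputs and 30.5%, 29.6% and 31.0% in the WT vDG inputs. It was lower in both cKO libraries by 1.73 percentage points (two-sided exact permutation p = 0.2, the smallest that 2 against 3 libraries allow). The Grin1 share of NMDA receptor transcripts was 42.1%, 40.5% and 39.1% in the WT IPs and 28.1%, 30.6% and 33.6% in the WT inputs, all IPs above all inputs. In cKO it was 40.3% and 44.1% in the IPs and 31.7% and 32.5% in the inputs. The difference was 9.85 points in WT (exact permutation p = 0.1, the smallest for 3 against 3) and 10.1 points in cKO (exact permutation p = 0.333, the smallest for 2 against 2). Grin2b held 41.1 ± 1.71% of NMDA transcripts in the WT IP and 40.9 ± 0.824% in the input, and Grin2c 0.231 ± 0.0654% and 3.73 ± 1.20%. On counts, Grin2b held 59.8% and Grin1 23.1% in the WT IP.

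**Figure D5:**
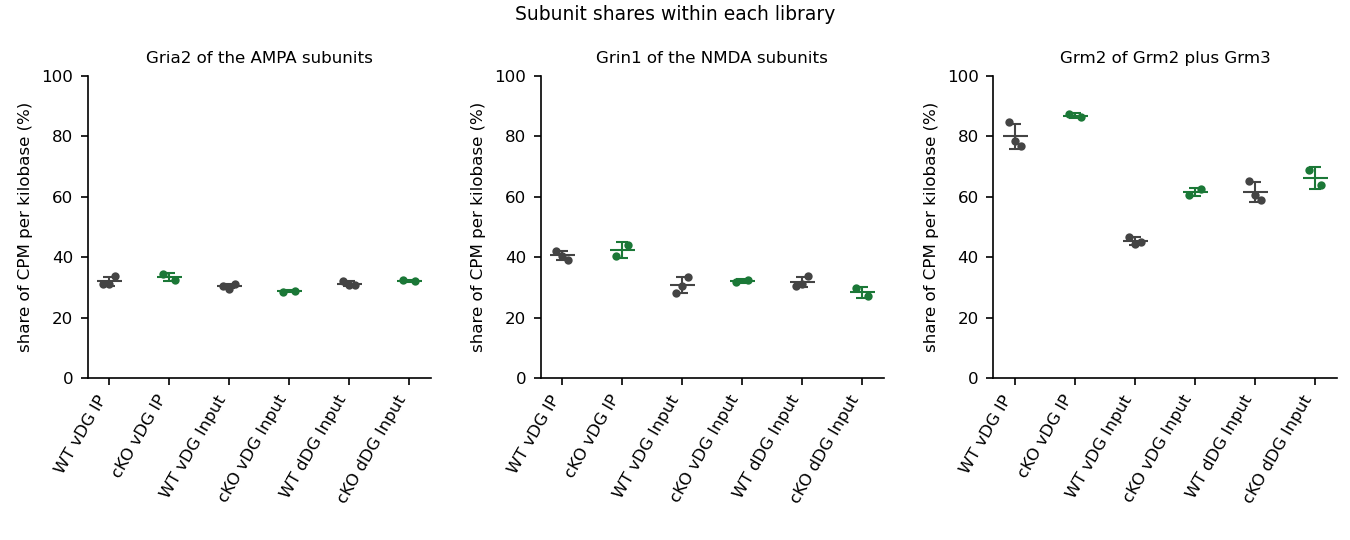
Share of single genes in the CPM per kilobase of their class, in percent, by group (3 WT and 2 cKO libraries each). Points are libraries and bars are mean ± SD, and the Grm2 share of Grm2 plus Grm3 lies higher in the IPs than in the vDG inputs of both genotypes.

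Within group II, the Grm2 share did not overlap between IP and vDG input or between vDG and dDG input in either genotype, nor between cKO and WT in the IP and in the vDG input, while it overlapped between cKO and WT in the dDG input. Its share of Grm2 plus Grm3 was 84.7%, 78.4% and 76.9% in the WT IPs and 46.7%, 44.2% and 45.0% in the WT vDG inputs. In cKO it was 87.3% and 86.2% in the IPs and 60.7% and 62.4% in the vDG inputs. The dDG inputs stood at 65.3%, 60.7% and 58.9% in WT and 68.7% and 63.7% in cKO. The share was 34.6 points higher in the WT IPs than inputs and 16.3 points higher in WT dDG than vDG, both without overlap (exact permutation p = 0.1 each). It was 16.2 points higher in the cKO than in the WT vDG inputs, also without overlap (exact permutation p = 0.2), and 6.78 points higher in the cKO than in the WT IPs (exact permutation p = 0.2). Within cKO, it was 25.2 points higher in the IPs than in the inputs and 4.67 points lower in vDG than in dDG (exact permutation p = 0.333 each). Each of these is the smallest p that the number of libraries allows, so none could pass 0.05. In dDG the Grin2a share of Grin2a plus Grin2b was 36.9% and 38.4% in cKO and 34.8%, 29.3% and 30.3% in WT, higher in both cKO libraries by 6.25 points (exact permutation p = 0.2).

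Summed over a class, AMPA receptor transcripts measured 215 to 272 CPM per kb in the WT IPs and 206 to 223 in the WT vDG inputs, and 196 to 200 and 159 to 161 CPM per kb in cKO. The cKO libraries lay below the WT libraries in both fractions. In the dDG inputs the sums were 202 to 254 CPM per kb in WT and 204 to 232 in cKO, which overlapped. The Shank sum had means of 63.5 CPM per kb in the WT and 81.2 in the cKO IPs, and 59.0 and 62.6 CPM per kb in the vDG inputs. The other sums in the vDG inputs had means of 29.0 in WT and 21.9 CPM per kb in cKO for NMDA receptors, 43.0 and 33.5 for metabotropic receptors and 128 and 124 for MAGUKs. Kainate receptors had means of 31.4 and 28.3, the delta receptor 2.17 and 1.71 and SAPAPs 88.7 and 89.8 CPM per kb. The Homer sum was higher in cKO without overlap, at 21.5 to 22.2 against 18.2 to 19.8 CPM per kb.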

How the data were processed

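TRAP and input RNA of pooled DG was sequenced in 15 libraries. The authors amplified 15 ng of RNA per library with Ovation RNA-Seq V2, prepared TruSeq libraries that do not mark strand and sequenced them on a NextSeq 500. Reads were checked with FastQC 0.11.4, trimmed, aligned to mm10 with STAR 2.4.2a, cleared of duplicates with SAMtools 0.1.19-444 and counted per gene with HTSeq in union mode. The deposited values are these raw counts per gene, 1 file per library. As no molecular identifiers were used, duplicate removal may lower the counts of highly expressed genes. Rows for reads not assigned to a gene were left out of library sizes. Tables of the authors' own comparisons, which hold fold changes, p-values and normalized counts, were not used.

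Groups were taken from the sample records. The members and lists were chosen with earlier results of these data known. Each of 7 comparisons and 2 interactions was fitted over its own libraries with edgeR 4.0.16 in R 4.3.3 (filterByExpr, TMM scaling, quasi-likelihood F-test, Benjamini-Hochberg FDR over all genes tested). The FDR threshold was 0.05, relaxed to 0.1 where the IPs of the genotypes were compared, and calls of IP over input also required a log2 fold change of at least 0.32 or a fold change under 0.5. CPM values are TMM-adjusted. Levels between genes were divided by the union exon length of GENCODE M21. All receptor and scaffold genes could be named, with values in every library for those called and, in a class without a call, for the gene of lowest FDR. Genes of the related lists were named where called, at most 4 per list and comparison in order of absolute log2 fold change, except those called by DESeq2 alone. The fits were tested on simulated counts. The alternatives were DESeq2 1.42.0, other scalings and count filters, all 15 libraries in one fit, a replicate block, removal of a length trend, other thresholds and leaving out each library. Depth was 19039295 to 30451430 counts on genes, and counting error was smallest for abundant genes. The p-values measure the spread between pools.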

Additional observations from a re-analysis of the deposited data

How the results depend on the processing

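Of the counts of called genes recomputed under each alternative, 251 stayed within 1.5 times the main count and 39 did not. These 251 include counts that were 0 in both fits, so the tally is no measure of how firm the counts above 0 were. Single log2 fold changes were followed for the genes called by FDR in a comparison or, in a class without a call, for the gene of lowest FDR. Judged by FDR without the fold limits, 1438 of these values kept their direction and side of the threshold, 97 lost a call, 29 gained one and 23 changed sign. Genes outside that choice also gained calls, such as Shank2 in the cKO IP against WT in 3 alternatives and Grin2b in the WT IP in 4. Grin3b held 2 to 17 counts per library, so small differences of that gene were not detectable at this depth. Where a value moved, the cause was not tested.

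Fitting all 15 libraries together gave 8 enriched genes in the WT IP (main 4), 5 lower in WT vDG (main 3), 3 higher in cKO vDG (main 6), 1 lower in the cKO IP (main 0) and 0 lower in the cKO vDG input (main 3). A minimum of 10 counts in every library, which removed Grin2c and Grik1 from these tests, left 2 depleted genes in each genotype (main 4). Without TMM scaling, 4 genes were enriched in the cKO IP (main 13). No count filter gave 6 lower genes in the cKO vDG input, 2 higher in the cKO dDG input and 2 lower in the region interaction (main 0 for both). DESeq2 gave 5 lower genes in WT vDG, 1 lower in the cKO IP and 2 higher in the cKO dDG input. An FDR of 0.1 in place of 0.05 gave 6 lower in WT vDG and 7 lower in the cKO vDG input. Removal of the length trend gave 8 enriched genes in cKO, 5 lower in WT vDG and 1 lower in the cKO vDG input.

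Libraries of the same number were not shown to be paired: in WT their deviations correlated at 0.46, -0.16 and -0.33 between IP and input and at 0.38, -0.11 and 0.22 between the regions. In cKO the single value for 2 pairs was 0.44 between IP and input and 0.16 between the regions. The cKO dDG inputs are numbered 1 and 2 by their titles, as used here, but 2 and 3 by their deposited files, by which cKO vDG input 2 would meet the dDG library called 1 here (-0.16). By the supplementary methods, input RNA came from a fraction of the cleared lysate before the pulldown, which ties an IP to an input of its pool. No source used here states that libraries of one number came from one pool. The records give different numbers of mice for IP and input. With the replicate block, the genes enriched and depleted in the IP were the same as without it in both genotypes. In the other comparisons, 5 genes were lower in WT vDG, 8 were higher and 13 lower in cKO vDG (main 6 and 9), 1 (Shank2) was higher in the cKO IP and 1 was higher in the cKO dDG input, and the cKO vDG input had 2 lower genes. The block together with removal of the length trend gave 8 enriched in the cKO IP, 5 lower in WT vDG, 1 higher in the cKO IP against WT and 1 lower in the cKO vDG input.

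Without each library in turn, the counts ran from 3 to 7 enriched and 3 to 4 depleted in the WT IP, 8 to 13 enriched and 3 to 4 depleted in the cKO IP, 4 to 8 higher and 1 to 3 lower in WT vDG, and 4 to 5 higher and 6 to 10 lower in cKO vDG. In cKO against WT they ran from 0 to 1 higher in the IP, 0 to 7 lower in the vDG input and 0 to 1 higher in the dDG input.

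The signs that changed were mostly of log2 fold changes near 0, and the ranges that follow are over fits without 1 library each. Grid1 ranged from -0.28 to 0.041 between the cKO regions and from -0.11 to 0.049 in cKO against WT dDG, where the block gave 0.0089. In cKO against WT, Homer1 ranged from -0.011 to 0.22 in the IP and Dlgap2 from -0.33 to 0.0042 in the vDG input. Shank2 ranged from -0.35 to 0.014 in the region interaction. In the fraction interaction Gria1 ranged from -0.087 to 0.057, with -0.047 without TMM scaling and -0.013 with all 15 libraries, and Grm2 from -0.17 to 0.21, with -0.030 without TMM scaling. The other ranges there were -0.28 to 0.053 for Grid1, -0.20 to 0.088 for Dlg1, -0.24 to 0.013 for Homer1 and -2.30 to 1.74 for Grik1, whose cKO IPs rested on 31 and 2 counts.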
